A study of Mus musculus with 8 samples.

Results

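The DNA replication machinery was followed in corneas of mice with dry eye, across 41 genes whose products license origins, unwind DNA, prime and extend new strands, and restore chromatin behind the fork. The genes were chosen by name from knowledge of replication, with earlier results of these data known. Each was found among the 23597 genes of the table. All 41 passed the filter of a mean of at least 0.5 FPKM (fragments scaled to library size and gene length, so levels are per length), as did 12100 genes in all. RNA came from whole corneas at day 14 of scopolamine, which blocks muscarinic receptors and so lowers tear secretion. The mice behind the 4 ICI samples had dry eye and received ICI 118551, which blocks β2-adrenergic receptors. Those behind the 4 Scop samples had dry eye and no ICI 118551. Each sample pooled 4 corneas, and all 8 had scopolamine, so no normal cornea enters the comparison. The sources used here give no strain, age, sex, route or dose, and do not link pools to mice. The tests therefore measure the spread among these 8 pools, which may be partly technical.

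Replication starts at origins bound by the origin recognition complex, where Cdc6 and Cdt1 load the MCM2-7 ring in the G1 phase. Cdc45 and the GINS complex then join the ring to form the active helicase, polymerase α with its primase starts each new strand, and polymerases δ and ε extend it on the sliding clamp PCNA. Transcription of many of these genes is driven by E2F factors as cells leave G1, so in tissue their transcripts mark dividing cells. In the cornea such cells lie mainly in the basal epithelium and the limbus, and they replace the cells shed at the surface.

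Several libraries stood apart before any comparison. Differentiated corneal epithelium was abundant in every library (summed FPKM of its 4 markers 26961 to 28791 in ICI and 26951 to 30708 in Scop), and basal and limbal markers summed to 9210.0 to 9984 in ICI and 9275 to 11211 in Scop. The 8 keratocyte and stromal markers summed to 1667 to 2249.6 in ICI and 647 to 1969 in Scop, with the lowest value in Scop replicate 3 and the next lowest Scop library at 1656. Scop replicate 3 was also highest for the 4 conjunctival markers (1246 to 1312 in ICI and 1169 to 1929 in Scop). The 9 leukocyte markers summed to 52.9 to 57.7 in ICI and 46.02 to 61.1 in Scop, with the neutrophil gene Ly6g at 0 in every library, and the 5 markers of corneal endothelium to 186 to 289 in ICI and 196 to 234 in Scop. Vessel markers (0.782 to 1.94 in ICI and 1.51 to 3.43 in Scop) and Schwann cell markers (1.02 to 2.27 in ICI and 1.74 to 2.88 in Scop) were near the floor. The ribosomal RNA-associated transcripts Gm26917, AY036118 and Lars2 summed to 3826, 3850.1, 3995 and 3854 FPKM in ICI, against 717, 954, 1177 and 5113 FPKM in Scop, with Scop replicate 4 above every ICI library. Recovered fragments lay between 34354346 and 39885822 per library, and a member rested on 89 to 5841 of them.

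All 41 replication genes had a lower mean on the log2(FPKM + 1) scale in ICI than in Scop, and none passed the test adjusted over all genes. Their log2 fold changes ran from -0.48 for Pola1, the catalytic subunit of polymerase α, to -0.01 for the GINS subunit gene Gins4, with a median of -0.27. The median of all 12100 genes was -0.02, and 55.4% of them had negative values. The sign of Gins4 turned under quantile normalisation, in limma-voom and when scaled to basal and limbal markers (0.014, 0.0064 and 0.055), and without ICI replicate 1 or Scop replicate 1 (0.016 and 0.046). The other 40 stayed negative in each of these. All 7 basal and limbal markers had negative log2 fold changes (median -0.08), and 0 of the 7 tested stromal markers did (median 0.53). Without Scop replicate 3 the numbers were 5 and 1 (medians -0.07 and 0.15), beside 60.3% of all genes. In this bulk tissue, fewer cycling cells, another mix of tissues in the pools and less of these transcripts per cell cannot be told apart.

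The test was limma on log2(FPKM + 1), two-sided, with Benjamini-Hochberg adjustment over all 12100 genes. It called 0 genes at an adjusted p under 0.05, 0% of those tested and 0 of the 41 members, whose adjusted p lay between 0.161 and 0.963. Without adjustment, 903 genes were lower and 552 higher in ICI at p under 0.05, against 717 lower and 728 higher after quantile normalisation. Limma-voom on recovered fragments called 0 after adjustment and counted 660 lower and 753 higher without it. Of the members, 22 of 41 were lower at an unadjusted p under 0.05 and 0 were higher, beside 7.46% and 4.56% of all genes. The members share cells and vary together, so these are not 22 separate results. The list was also chosen with earlier results of these data known. The count of 22 was 9 without ICI replicate 2 (beside 5.11% of all genes) and 11 without ICI replicate 4 (6.77%). It was 12 without Scop replicate 1 (6.04%), 12 without Scop replicate 2 (5.25%) and 11 without Scop replicate 4 (6.31%). It was 33 without Scop replicate 3, beside 9.98% of all genes lower and 4.21% higher. In that comparison 1 gene, which was no member, passed adjustment, 0.00824% of those tested, and 60.3% of genes had negative values.

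**Figure D1:**
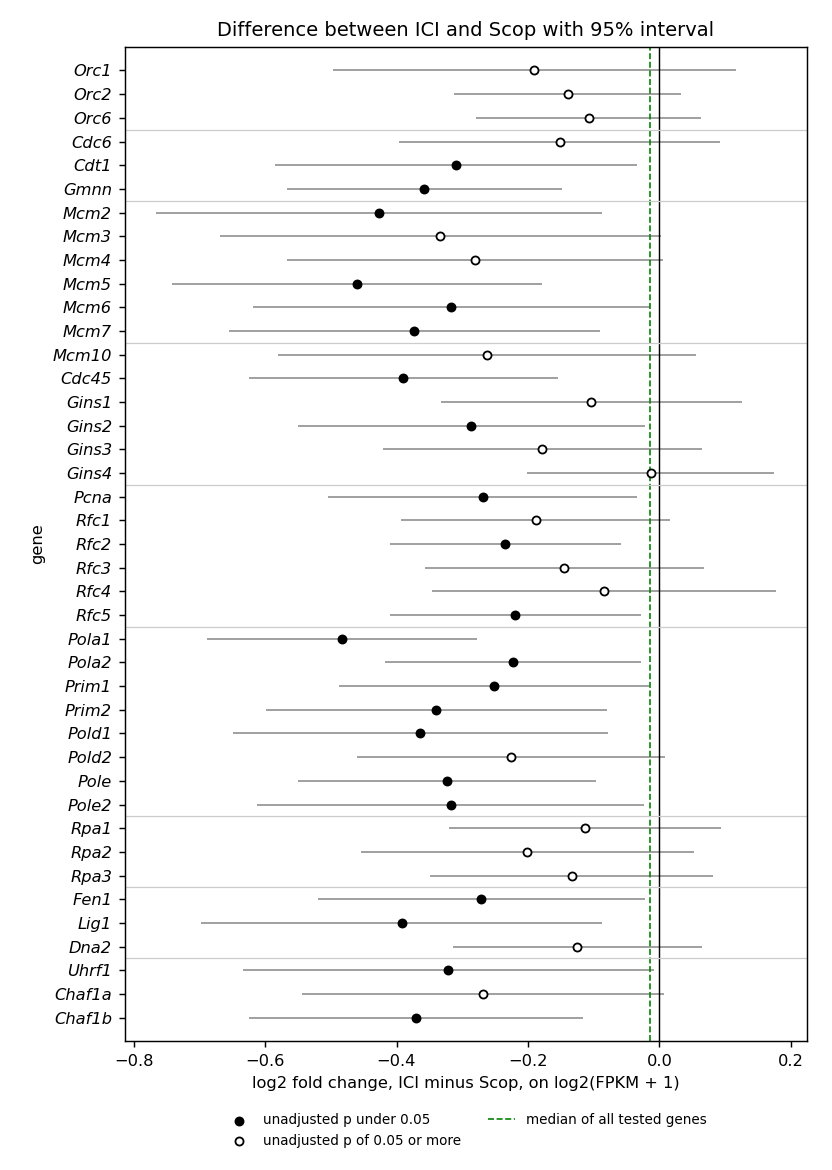
Log2 fold change of each of the 41 genes (ICI minus Scop on log2(FPKM + 1), n = 4 samples per group), with limma's 95% interval and the genes ordered by role down the page. All 41 points lie left of 0, though Gins4, at -0.01, changed sign under 5 of 21 alternatives, quantile normalisation and limma-voom among them, and the median of all tested genes (dashed) is at -0.02.

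The order of the libraries was much the same from gene to gene. ICI replicate 2 was the lowest of the 8 libraries for 32 of the 41 genes, where it was the lowest for 18.2% of all tested genes. Among the Scop libraries, replicate 3 was the lowest for 34 of 41, beside 43.6% of all genes, and in 35 of 41 it lay below the higher of ICI replicates 1 and 3, as it did in 66.7% of all genes. The highest library was Scop replicate 1 for 20 of the 41 genes (20.8% of all genes), Scop replicate 4 for 15 (7.42%), Scop replicate 2 for 5 (14.7%) and ICI replicate 3 for 1, the gene Rpa1 (9.40%). Summed over the 41 genes, the levels were 587, 450.3, 595 and 494 FPKM in ICI, against 676, 652, 550.1 and 677 FPKM in Scop. ICI replicates 1 and 3 therefore overlapped Scop replicate 3, while ICI replicates 2 and 4 lay below every Scop library.

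**Figure D2:**
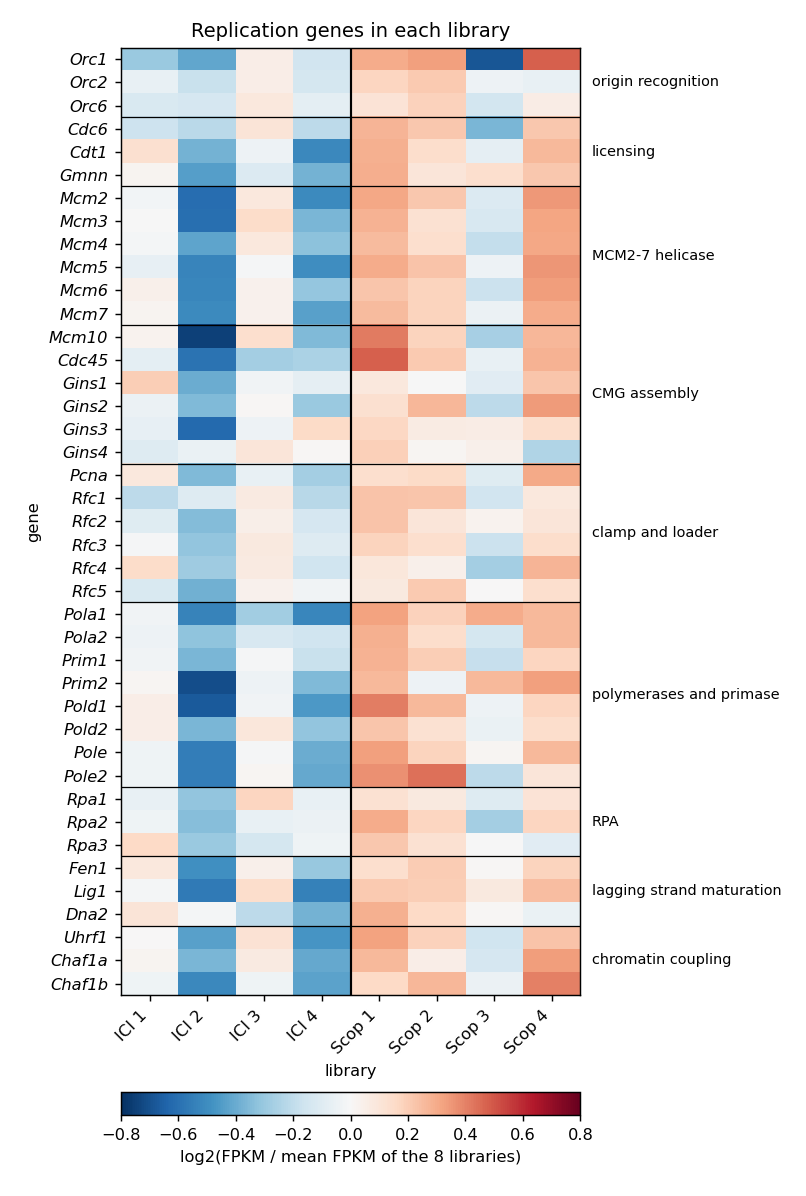
Level of each replication gene in each library as log2(FPKM / mean FPKM of the 8 libraries), with the 4 ICI libraries left of the 4 Scop libraries and genes grouped by role. ICI replicates 2 and 4 are the lowest columns, Scop replicates 1, 2 and 4 the highest, and Scop replicate 3 lies below the higher of ICI replicates 1 and 3 in 35 of 41 rows (66.7% of all genes).

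The groups did not overlap in 4 of the 41 genes, Pola1, Pole, Gmnn and Cdc45, with ICI lower in each, beside 4.36% of all tested genes (2.63% were separated in the other direction). Without Scop replicate 3 the number was 29 of 41, beside 9.62% of all genes (3.97% in the other direction), and without ICI replicate 3 it was 8, beside 6.41%. Scop replicate 3 was the library with few stromal transcripts, and the part of tissue composition in its position was not tested. With a stromal score as a covariate, 34 of 41 were lower at an unadjusted p under 0.05, beside 11.2% of all genes. Scaled to the markers of differentiated or of basal and limbal epithelium, the number was 12 and 10 of 41, beside 4.14% and 1.54%, and the separated genes numbered 1 of 41 under both, beside 2.59% and 0.875%. The spread among replicates was larger than counting error for 41 genes in ICI and 40 in Scop, with a median coefficient of variation of 16.4% in ICI and 11.4% in Scop. The fragments alone would give 3.40% in ICI and 3.18% in Scop. The same count was not made over all genes, so it cannot be read as particular to the members.

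**Figure D3:**
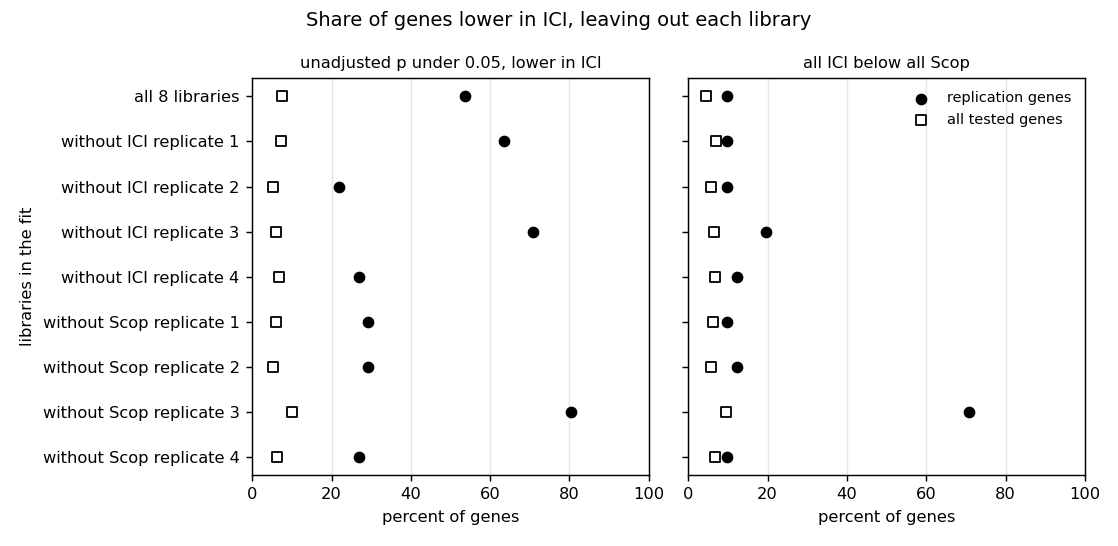
Percent of the 41 replication genes (filled circles) and of all tested genes (open squares) that were lower in ICI, for all 8 libraries and with each library left out, by an unadjusted limma p under 0.05 (left) and by all ICI values lying below all Scop values (right). In the right panel the replication genes reach 29 of 41 only when Scop replicate 3 is left out, beside 9.62% of all genes.

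Letters of E2F sites in the promoters were next counted. The choice of genes did not use these letters, but many replication genes are known E2F targets, so the count is a description. RefSeq promoter windows of the GRCm38.p6 build, from 250 bases before to 50 after an annotated start, were matched for 33 of the 41 genes. The E2F letters TTTGGCGC, TTTCCCGC, TTTGCCGC or TTTCGCGC, searched on both strands, occurred in 14 of the 33, and in 2.60% of the 27025 genes with a window. Those 27025 were not limited to genes tested here, nor matched to the members in level or base content. The CCAAT box, read as CCAAT on both strands, occurred in 22 of 33 and in 41.1% of genes. The GC box GGGCGG occurred in 24 of 33 and 38.2%, and the cell cycle element TTTGAA in 5 of 33 and 20.2%, both strands being searched. Members with the E2F letters had a median log2 fold change of -0.32 (14 genes) and those without of -0.22 (19 genes), and both ranges spanned most of the values (-0.48 to -0.14 and -0.43 to -0.08). A match describes letters and not binding, and E2F matches on opposite strands can overlap each other. The 200 bases before the start are shown for Mcm5 and Mcm6, with several E2F matches, Mcm2, with none in its window, and for Pola1, Cdc6 and Orc1, which begin priming and licensing, 5′ to 3′ on the gene's strand, with E2F and CCAAT matches in capitals.
Mcm5 (chr8:75109309-75109508, plus strand): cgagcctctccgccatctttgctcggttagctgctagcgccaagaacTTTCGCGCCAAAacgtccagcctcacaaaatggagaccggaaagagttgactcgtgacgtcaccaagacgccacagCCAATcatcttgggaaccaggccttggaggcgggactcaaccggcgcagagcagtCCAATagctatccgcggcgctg
Mcm6 (chr1:128359706-128359905, minus strand): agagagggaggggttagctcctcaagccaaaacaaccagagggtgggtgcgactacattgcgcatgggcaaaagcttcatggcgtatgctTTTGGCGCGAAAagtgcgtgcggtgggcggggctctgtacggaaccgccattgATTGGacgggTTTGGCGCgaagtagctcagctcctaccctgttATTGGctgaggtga
Mcm2 (chr6:88898781-88898980, minus strand): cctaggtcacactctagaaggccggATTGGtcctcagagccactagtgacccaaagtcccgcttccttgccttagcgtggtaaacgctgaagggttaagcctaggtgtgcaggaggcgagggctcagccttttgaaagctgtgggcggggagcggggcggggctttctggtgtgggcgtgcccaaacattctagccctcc
Pola1 (chrX:93632156-93632355, minus strand): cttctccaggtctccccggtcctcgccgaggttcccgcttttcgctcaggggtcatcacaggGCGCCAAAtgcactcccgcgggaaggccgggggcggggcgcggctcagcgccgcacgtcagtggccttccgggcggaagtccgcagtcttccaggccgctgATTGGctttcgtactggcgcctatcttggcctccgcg
Cdc6 (chr11:98907951-98908150, plus strand): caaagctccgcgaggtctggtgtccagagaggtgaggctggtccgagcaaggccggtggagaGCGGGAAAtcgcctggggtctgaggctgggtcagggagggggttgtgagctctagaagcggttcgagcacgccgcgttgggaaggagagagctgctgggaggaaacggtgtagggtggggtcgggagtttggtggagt
Orc1 (chr4:108579254-108579453, plus strand): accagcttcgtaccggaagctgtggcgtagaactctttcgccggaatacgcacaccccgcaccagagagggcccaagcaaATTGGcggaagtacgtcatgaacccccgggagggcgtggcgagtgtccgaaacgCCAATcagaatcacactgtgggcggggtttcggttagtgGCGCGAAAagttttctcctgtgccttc
In Mcm5 and in the upstream site of Mcm6, matches on both strands overlapped each other. In Mcm5, Mcm6, Pola1 and Orc1 the window held CCAAT matches as well. The Cdc6 window held an E2F match and no CCAAT match, and the Mcm2 window a CCAAT match and no E2F match. The printed windows of Orc1, Cdc6 and Pola1 precede an annotated start inside the gene and so lie within its span. On the gene's strand these spans begin at 108575705, 98907709 and 93632387. The Mcm5 window crosses the beginning of its span, at 75109468.

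In the origin recognition complex, 0 of the 3 subunit genes were lower at an unadjusted p under 0.05, beside 7.46% of all genes. Values in the sentences below run from replicate 1 to replicate 4 in each group. Orc2, a core subunit, stood at 11.2, 10.3, 12.1 and 10.6 FPKM in ICI, against 13.2, 13.5, 11.3 and 11.2 FPKM in Scop (log2 fold change -0.14, 95% interval -0.31 to 0.03, limma adjusted p = 0.512). Orc6, the smallest subunit, stood at 15.1, 14.9, 17.3 and 15.5 FPKM in ICI, against 17.7, 18.6, 14.8 and 17.1 FPKM in Scop (log2 fold change -0.11, 95% interval -0.28 to 0.06, limma adjusted p = 0.603). For both genes the groups overlapped, with ICI replicate 3 above the lowest Scop values. Orc1, the subunit that joins origins as cells leave mitosis and that E2F controls, averaged 1.21 ± 0.173 FPKM in ICI and 1.55 ± 0.473 FPKM in Scop (averages are means ± SD over the 4 pools of a group). Its log2 fold change with the 95% interval was -0.19 (-0.50 to 0.12), the form used below for other genes. Orc1 was lowest in Scop replicate 3, at 0.856 FPKM, although the other 3 Scop libraries all lay above every ICI library. Without Scop replicate 3, 2 of the 3 genes were lower at an unadjusted p under 0.05, beside 9.98% of all genes. This fit is the only one with a library left out that is given by role and list below. It gave the highest count over the 41 members (33), where the fit without ICI replicate 2 gave the lowest (9). The role and list counts without Scop replicate 3 are therefore the upper side of that range. Per length, Orc6 exceeded Orc1 by 8.88 to 17.3 times across the 8 libraries. Orc2 shared 29.8% of its exon bases with Nif3l1, and Orc1 10.8% with Gm12743, each on the other strand. The sources used here do not say whether counting used strand.

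Of the 3 licensing genes, 2 were lower at an unadjusted p under 0.05 (7.46% of all genes), and 3 without Scop replicate 3 (9.98%). Gmnn was separated between the groups, as were 4.36% of all genes in that direction. Gmnn (chromosome 13, 24751845 to 24761937 of GRCm38) encodes geminin, the inhibitor that blocks Cdt1 from licensing an origin again, and stood at 7.39, 5.35, 6.74 and 5.60 FPKM in ICI, against 8.91, 7.76, 7.97 and 8.43 FPKM in Scop (log2 fold change -0.36, SE 0.09, limma adjusted p = 0.216). Every ICI value lay below every Scop value, and the closest pair was ICI replicate 1 and Scop replicate 2. Cdt1, which brings the MCM ring to origins, stood at 7.65, 5.39, 6.81 and 4.91 FPKM in ICI, against 8.54, 7.74, 6.68 and 8.40 FPKM in Scop (log2 fold change -0.31, SE 0.12, limma adjusted p = 0.362), and ICI replicates 1 and 3 lay within the Scop values. Cdc6, the ATPase that works with Cdt1, averaged 2.33 ± 0.260 FPKM in ICI and 2.72 ± 0.508 FPKM in Scop (-0.15 (-0.40 to 0.09)), and Scop replicate 3 (1.97 FPKM) was the lowest of all libraries. Gmnn and Cdt1 were at nearly the same level per length, the ratio of Gmnn to Cdt1 lying between 0.965 and 1.19 over the libraries.

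All 6 genes of the MCM2-7 ring had lower means in ICI, with a median log2 fold change of -0.35 and 0 passing after adjustment. At an unadjusted p under 0.05, 4 of 6 were lower, beside 7.46% of all genes. Mcm5 stood at 18.8, 13.6, 19.5 and 13.9 FPKM in ICI, against 24.1, 23.00, 19.1 and 25.1 FPKM in Scop (log2 fold change -0.46, SE 0.13, limma adjusted p = 0.236). Mcm7 stood at 19.6, 13.6, 19.8 and 14.3 FPKM in ICI, against 23.05, 21.9, 18.8 and 23.8 FPKM in Scop (log2 fold change -0.37, SE 0.13, limma adjusted p = 0.304). In both, ICI replicates 2 and 4 lay below every Scop value, while ICI replicate 3 lay above Scop replicate 3. Mcm6, the most abundant subunit transcript per length, stood at 25.00, 16.98, 24.9 and 19.6 FPKM in ICI, against 28.3, 27.6, 21.6 and 30.7 FPKM in Scop (log2 fold change -0.32, SE 0.14, limma adjusted p = 0.395). Mcm4, with the largest p of the 6, stood at 18.7, 14.1, 20.02 and 15.03 FPKM in ICI, against 22.5, 20.7, 16.5 and 23.3 FPKM in Scop (log2 fold change -0.28, SE 0.13, limma adjusted p = 0.423). Both again had ICI replicates 1 and 3 between Scop replicate 3 and the other Scop libraries. Mcm2 averaged 14.7 ± 3.47 FPKM in ICI and 19.9 ± 2.69 FPKM in Scop (-0.43 (-0.77 to -0.09)) and Mcm3 16.9 ± 3.89 FPKM in ICI and 21.2 ± 2.85 FPKM in Scop (-0.33 (-0.67 to 0.00)). Without Scop replicate 3, 6 of 6 subunits were lower at an unadjusted p under 0.05 (beside 9.98% of all genes). In 5 of 6 the groups then did not overlap, beside 9.62% of all genes.

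The 6 subunits, which enter the ring in equal numbers, kept close levels per length in each library. Mcm6 was the highest of them in 8 of 8 libraries and exceeded Mcm5 by 1.13 to 1.41 times. Mcm5, Mcm7, Mcm3 and Mcm4 changed order between libraries and did not differ beyond that spread, with each ratio between neighbours lying from 0.892 to 1.08. Mcm2 was below Mcm4 in 8 of 8 libraries, by a ratio of 1.03 to 1.24. Summed over the ring, the levels were 118, 82.1, 124 and 89.8 FPKM in ICI, against 142, 134, 109 and 149 FPKM in Scop.

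**Figure D4:**
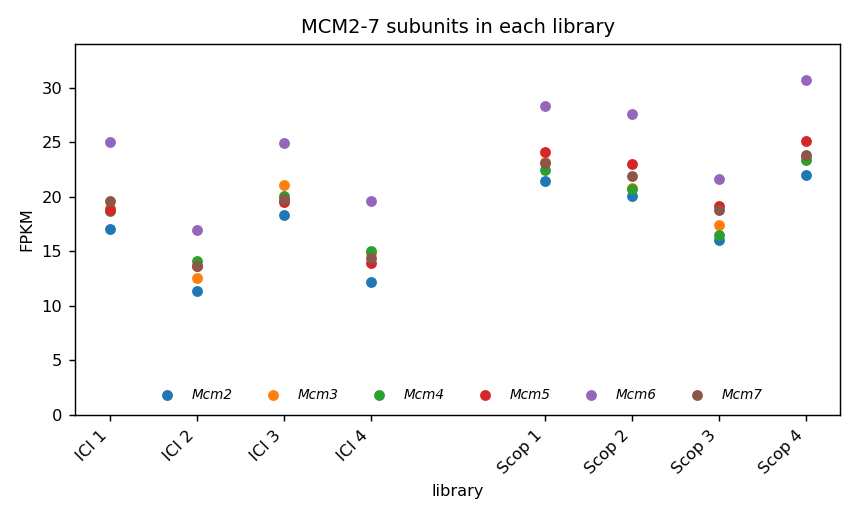
FPKM of the 6 MCM2-7 subunit genes in each library, ICI left of Scop, each point being 1 sample of 4 pooled corneas. The 6 genes move together, at 11.3 to 25.0 FPKM in the ICI libraries and 16.0 to 30.7 FPKM in the Scop libraries, and Mcm6 is the highest in 8 of 8 libraries.

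Among the factors that turn the loaded ring into a moving helicase, 2 of 6 genes were lower at an unadjusted p under 0.05. Without Scop replicate 3 the number was 3, and the shares of all genes were 7.46% and 9.98%. Cdc45 was separated between the groups, as were 4.36% of all genes in that direction. Cdc45 (chromosome 16, 18780447 to 18811972 of GRCm38), which bridges the ring and GINS, stood at 2.84, 1.99, 2.48 and 2.52 FPKM in ICI, against 4.17, 3.46, 2.88 and 3.62 FPKM in Scop (log2 fold change -0.39, SE 0.11, limma adjusted p = 0.233). The highest ICI value (2.84) and the lowest Scop value (2.88, Scop replicate 3) were close. Gins2 stood at 16.01, 12.9, 16.7 and 13.5 FPKM in ICI, against 18.1, 19.9, 14.3 and 20.97 FPKM in Scop (log2 fold change -0.29, SE 0.12, limma adjusted p = 0.381), with ICI replicates 1 and 3 above Scop replicate 3. Gins2 shared 67.3% of its exon bases with Gse1 on the other strand. Gins4 stood at 16.04, 16.6, 18.5 and 17.4 FPKM in ICI, against 19.6, 17.4, 17.7 and 14.6 FPKM in Scop (log2 fold change -0.01, 95% interval -0.20 to 0.17, limma adjusted p = 0.963), with Scop replicate 4 the lowest of all libraries, unlike the other members. Gins1 and Gins3, the remaining subunits of the complex, had -0.10 (-0.33 to 0.13) and -0.18 (-0.42 to 0.06), and Mcm10, an activator of the helicase, averaged 2.09 ± 0.546 FPKM in ICI and 2.69 ± 0.507 FPKM in Scop (-0.26 (-0.58 to 0.06)). The 4 GINS genes, whose products also assemble in equal numbers, were not level per length, since Gins2 exceeded Gins1 by 3.31 to 4.73 times and Gins4 exceeded Gins3 by 4.67 to 9.01 times.

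Of the clamp and its loader (median log2 fold change -0.20), 3 of 6 genes were lower at an unadjusted p under 0.05. Without Scop replicate 3 the number was 5, and the shares of all genes were 7.46% and 9.98%. Pcna, the sliding clamp, had the highest level of the 41 genes in 8 of 8 libraries and stood at 110.4, 81.7, 100.3 and 86.3 FPKM in ICI, against 114, 116, 97.4 and 129 FPKM in Scop (log2 fold change -0.27, SE 0.11, limma adjusted p = 0.356). ICI replicates 2 and 4 lay below the Scop values, and ICI replicates 1 and 3 above Scop replicate 3. Rfc2 and Rfc5 encode small subunits of the clamp loader. Rfc2 stood at 28.00, 23.5, 30.9 and 27.3 FPKM in ICI, against 34.95, 32.02, 30.5 and 31.9 FPKM in Scop (log2 fold change -0.23, SE 0.08, limma adjusted p = 0.302), and Rfc5 at 17.7, 14.7, 19.8 and 18.9 FPKM in ICI, against 20.3, 22.3, 19.4 and 21.1 FPKM in Scop (log2 fold change -0.22, SE 0.09, limma adjusted p = 0.356). In both, 3 of 4 ICI values lay below all Scop values, and ICI replicate 3 did not. Rfc4, another small subunit, stood at 15.8, 11.8, 15.01 and 12.8 FPKM in ICI, against 15.3, 14.7, 11.8 and 17.3 FPKM in Scop (log2 fold change -0.08, 95% interval -0.35 to 0.18, limma adjusted p = 0.799), and its groups overlapped widely. Rfc1, the large subunit, and Rfc3 had -0.19 (-0.39 to 0.02) and -0.14 (-0.36 to 0.07). Rfc2, Rfc4 and Rfc5 shared 15.1%, 12.7% and 10.7% of their exon bases with genes on the other strand.

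Of the polymerases and the primase, 7 of 8 genes were lower at an unadjusted p under 0.05, beside 7.46% of all genes. In 2 the groups did not overlap, beside 4.36% of all genes. Without Scop replicate 3 these counts were 8 and 7, beside 9.98% and 9.62%. Positions are on the GRCm38 build. Pola1 (chromosome X, 93304766 to 93632387) stood at 3.98, 2.81, 3.34 and 2.83 FPKM in ICI, against 5.09, 4.62, 4.99 and 4.87 FPKM in Scop (log2 fold change -0.48, SE 0.09, limma adjusted p = 0.161), so that its ICI mean was 66.2% of the Scop mean. The ICI libraries lay between 2.81 and 3.98 FPKM and the Scop libraries between 4.62 and 5.09 FPKM, and Scop replicate 3, low for most members, was the second highest here. Pole (chromosome 5, 110286319 to 110337468), the catalytic subunit of the leading strand polymerase ε, stood at 2.80, 1.96, 2.85 and 2.17 FPKM in ICI, against 3.59, 3.24, 2.89 and 3.43 FPKM in Scop (log2 fold change -0.32, SE 0.10, limma adjusted p = 0.291), with ICI replicate 3 (2.85) close to Scop replicate 3 (2.89). Prim1, the catalytic primase subunit, stood at 23.6, 18.7, 23.9 and 21.3 FPKM in ICI, against 29.3, 27.7, 21.2 and 27.2 FPKM in Scop (log2 fold change -0.25, SE 0.11, limma adjusted p = 0.388), and Pold2, a non-catalytic subunit of polymerase δ, at 15.1, 11.3, 15.5 and 11.7 FPKM in ICI, against 16.96, 15.8, 14.04 and 16.04 FPKM in Scop (log2 fold change -0.23, SE 0.11, limma adjusted p = 0.427). Both overlapped, with ICI replicates 1 and 3 above Scop replicate 3. Pold1, the catalytic subunit of polymerase δ, and Prim2, the large primase subunit, averaged 2.98 ± 0.696 FPKM in ICI and 4.08 ± 0.520 FPKM in Scop (-0.36 (-0.65 to -0.08)) and 2.33 ± 0.508 FPKM in ICI and 3.19 ± 0.346 FPKM in Scop (-0.34 (-0.60 to -0.08)). Pola2 and Pole2, second subunits of polymerases α and ε, had -0.22 (-0.42 to -0.03) and -0.32 (-0.61 to -0.02). Per length, Prim1 exceeded Prim2 by 6.43 to 11.1 times and Pold2 exceeded Pold1 by 3.62 to 5.08 times.

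Of the 3 genes of replication protein A, which coats single-stranded DNA, 0 were lower at an unadjusted p under 0.05. Without Scop replicate 3 the number was 1, and the shares of all genes were 7.46% and 9.98%. Rpa1, the large subunit, stood at 27.4, 22.9, 32.1 and 27.3 FPKM in ICI, against 31.00, 30.2, 26.6 and 30.8 FPKM in Scop (log2 fold change -0.11, 95% interval -0.32 to 0.09, limma adjusted p = 0.654), with its highest value in ICI replicate 3. Rpa2 stood at 16.7, 13.5, 16.4 and 16.6 FPKM in ICI, against 21.02, 19.3, 14.2 and 19.3 FPKM in Scop (log2 fold change -0.20, 95% interval -0.45 to 0.05, limma adjusted p = 0.516), and Rpa3, the smallest subunit, at 27.95, 20.4, 22.8 and 24.5 FPKM in ICI, against 29.1, 27.3, 25.03 and 23.5 FPKM in Scop (log2 fold change -0.13, 95% interval -0.35 to 0.08, limma adjusted p = 0.608). In all 3 the groups overlapped, and each interval took in both 0 and -0.27, the median of the 41 genes.

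Okazaki fragments are finished by the flap nuclease Fen1, the helicase and nuclease Dna2 and the ligase Lig1. Of the 3 genes, 2 were lower at an unadjusted p under 0.05 (7.46% of all genes), and 2 without Scop replicate 3 (9.98%). Lig1 stood at 11.4, 7.78, 12.7 and 7.94 FPKM in ICI, against 13.3, 13.2, 12.2 and 13.7 FPKM in Scop (log2 fold change -0.39, SE 0.14, limma adjusted p = 0.316), with ICI replicates 2 and 4 well below all other libraries and ICI replicate 3 within the Scop values. Fen1 stood at 12.3, 8.29, 11.9 and 9.44 FPKM in ICI, against 12.8, 13.4, 11.7 and 13.2 FPKM in Scop (log2 fold change -0.27, SE 0.11, limma adjusted p = 0.377), with the same libraries lowest. Fen1 shared 78.8% of its exon bases with Gm10143 on the other strand, a gene without values here. Dna2 was low, at 1.19 ± 0.172 FPKM in ICI and 1.39 ± 0.146 FPKM in Scop (-0.12 (-0.31 to 0.06)). Behind the fork, Uhrf1 brings the maintenance DNA methyltransferase to newly made DNA, and Chaf1a and Chaf1b are subunits of the histone chaperone CAF-1. Of these 3 genes, 2 were lower at that threshold (7.46% of all genes), and 3 without Scop replicate 3 (9.98%). Uhrf1 stood at 18.9, 13.9, 20.3 and 13.6 FPKM in ICI, against 23.5, 21.4, 16.8 and 22.00 FPKM in Scop (log2 fold change -0.32, SE 0.14, limma adjusted p = 0.402), and Chaf1b at 4.86, 3.49, 4.86 and 3.71 FPKM in ICI, against 5.56, 6.004, 4.82 and 6.58 FPKM in Scop (log2 fold change -0.37, SE 0.11, limma adjusted p = 0.282). For both, Scop replicate 3 lay below ICI replicates 1 and 3. Chaf1a averaged 8.11 ± 1.41 FPKM in ICI and 9.95 ± 1.43 FPKM in Scop (-0.27 (-0.54 to 0.01)), and it shared 52.5% of its exon bases with Ubxn6 on the other strand.

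Genes of the same pathways outside the 41 gave the following, with 0 passing after adjustment in every list and values read beside the 7.46% of all genes lower at an unadjusted p under 0.05. Of 16 further origin genes, 2 were lower at that threshold and 15 had negative values (median -0.11), led by Topbp1, which recruits firing factors (log2 fold change -0.28, SE 0.09, adjusted p = 0.280), and Dbf4, the activator of the firing kinase Cdc7 (-0.34, SE 0.14, adjusted p = 0.374). Of 19 further fork genes, 7 were lower and 1 higher (median -0.19). The higher gene, named after its value was seen, was Pold4, a small subunit of polymerase δ (0.33, SE 0.14, adjusted p = 0.392). Pclaf, a partner of PCNA, had a log2 fold change of -0.45 and Chtf18, of an alternative clamp loader, -0.39, and in both the groups did not overlap. Of the 19 genes, 4 were separated in that direction, beside 4.36% of all genes. Pclaf and Chtf18 were named for the smallest p, so their separation adds nothing to it. Of 12 genes of replication-coupled chromatin, 2 were lower (median -0.10), the maintenance methyltransferase gene Dnmt1 (-0.26, SE 0.08, adjusted p = 0.289) and the histone chaperone gene Asf1b (-0.32, SE 0.14, adjusted p = 0.400). Of 11 S-phase checkpoint genes, 3 were lower (median -0.11), among them Clspn (-0.40, SE 0.12, adjusted p = 0.282) and Chek1 (-0.41, SE 0.16, adjusted p = 0.342), the adaptor and the effector kinase of the checkpoint. The third was the kinase gene Atr (-0.20, SE 0.08, adjusted p = 0.365), named after its value was seen. Of the checkpoint genes, Clspn stands among the fork genes too, Ticrr among the origin genes and Cdc25a among the regulators of S phase entry below. Without Scop replicate 3 the genes lower at that threshold numbered 4 of the origin list, 12 of the fork list, 4 of the chromatin list and 5 of the checkpoint list, beside 9.98% of all genes.

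Of 28 regulators of the entry into S phase, 6 were lower and 0 higher at an unadjusted p under 0.05 (median -0.11). Over all genes, 7.46% were lower and 4.56% higher. Ccnd3, a D-type cyclin, stood at 11.7, 9.86, 11.3 and 11.8 FPKM in ICI, against 13.6, 13.1, 15.9 and 14.4 FPKM in Scop (-0.32, SE 0.08, adjusted p = 0.193), and E2f4, an E2F factor that acts mainly as a repressor, at 21.4, 19.3, 19.9 and 19.7 FPKM in ICI, against 22.4, 25.1, 24.2 and 23.3 FPKM in Scop (-0.23, SE 0.05, adjusted p = 0.193). In both, which were named for the smallest p, the ICI values all lay below the Scop values. So they did in 4 of the 28 genes, beside 4.36% of all genes. Enzymes that supply deoxynucleotides were lower in 8 of 10 genes at that threshold and higher in 0 (median -0.30), beside the same shares. Dck, the salvage kinase of deoxycytidine, stood at 15.3, 14.7, 15.3 and 14.3 FPKM in ICI, against 19.6, 19.3, 17.8 and 17.9 FPKM in Scop (-0.30, SE 0.05, adjusted p = 0.154), again without overlap. Of the 10 genes, 4 were separated in that direction, beside 4.36% of all genes. Without Scop replicate 3 the genes lower were 11 of 28 in the S phase entry list and 9 of 10 in the nucleotide list. The share of all genes was then 9.98%.

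In summed level, mitotic genes followed another order of the Scop libraries, while the ICI libraries kept the order they had for replication. Of 25 tested (median -0.19), 3 were lower at an unadjusted p under 0.05, beside 7.46% of all genes. Without Scop replicate 3 the number was 0, beside 9.98% of all genes, and the median -0.10. The lowest p were those of Bub1, a spindle checkpoint kinase (-0.25, SE 0.09, adjusted p = 0.341), and Cdca8, a subunit of the chromosomal passenger complex (-0.39, SE 0.16, adjusted p = 0.378). Mad2l1, another spindle checkpoint gene, was the third (-0.28, SE 0.12, adjusted p = 0.404), named after its value was seen. The 26 mitotic genes summed to 183, 131, 221 and 175 FPKM in ICI, against 159.6, 194, 260.2 and 196 FPKM in Scop. Scop replicate 3 was thus the highest library for mitosis and the lowest Scop library for replication, and Scop replicate 1, among the highest for replication, was the lowest Scop library for mitosis. ICI replicate 2 was the lowest library in both. The lists of nucleotide supply and of mitosis were set beside the replication genes as a description, and the difference between lists was not tested.

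**Figure D5:**
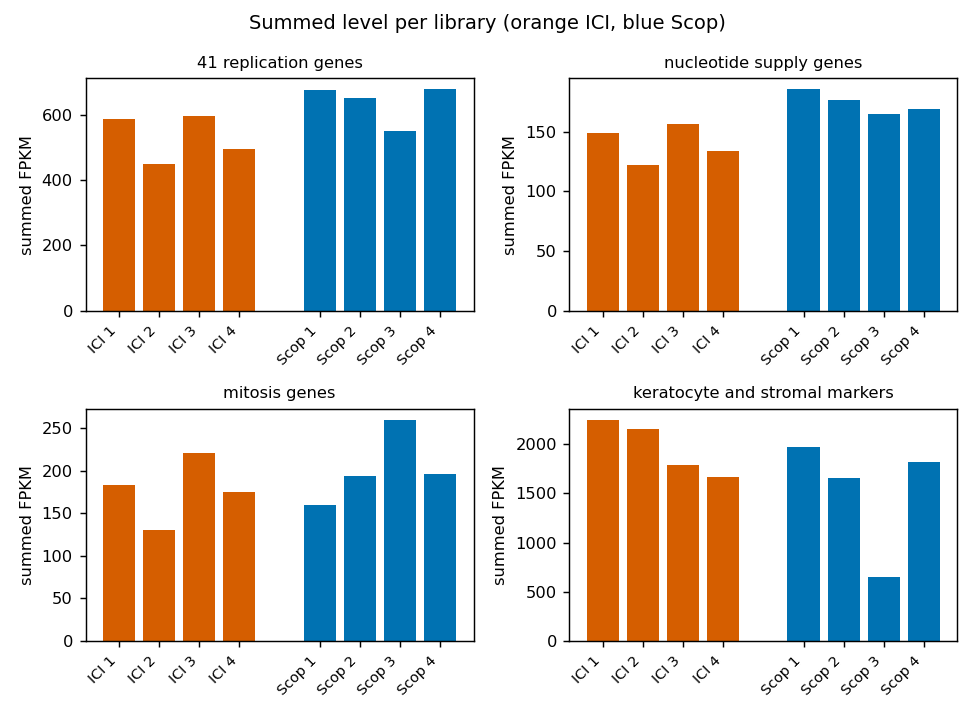
Summed FPKM per library of the 41 replication genes, 10 nucleotide supply genes, 26 mitosis genes and 8 keratocyte and stromal markers, with ICI (orange) left of Scop (blue). Replication sums are 450 to 595 in ICI and 550 to 677 in Scop, and Scop replicate 3 is low there, high for mitosis (260.2) and lowest for stromal markers (647).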

How the data were processed

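The authors deposited 1 table of FPKM values, 1 column per sample, matched by sample title. The submitters' processing notes name mm10, HTSeq, HISAT2 and fastp. Versions, roles, strandedness and any scaling between samples are not given there. Whole fragments were recovered from ratios of a gene's FPKM values between libraries (relative tolerance 5e-13, taken as whole within 0.01) for 99.8% of genes, all 41 members among them.

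Limma 3.58.1 (R 4.3.3, eBayes with trend) was fitted to log2(FPKM + 1) over 12100 genes. The code was run first on simulated data with known changes. That run had no shared shifts between libraries, so it does not test the method on the spread seen here. Fold changes on this scale understate those of low genes. Alternatives were other pseudocounts, filters, scalings, eBayes settings, a replicate block, a stromal covariate, limma-voom on the fragments (TMM factors computed after its published formula) and each library left out. Scaling to epithelial markers was added after the data had been seen. No pair of libraries agreed within sampling noise (lowest chi-square per degree of freedom 12.7, Scop replicates 1 and 2). By this measure Scop replicate 4 lay nearer to the ICI libraries (17.1 to 27.7) than to the other Scop libraries (53.9 to 69.0). The measure sums over genes without a cap, so abundant transcripts that differ weigh most in it. Gm26917, with 159923 to 1031123 fragments, stood at 689 FPKM in Scop replicate 1 and 4936 FPKM in Scop replicate 4. The values therefore do not describe likeness over most genes, and the share of Gm26917 was not computed. The cause was not tested.

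The members and lists were chosen with earlier results of these data known. Per role, values in every sample are given for the 2 genes of smallest p, the largest p in roles of 4 or more, and the highest mean, and per pathway list the 2 of smallest p are named. 1 gene that this rule names is not reported here. Pairs compared for level and the printed promoters were chosen after values were seen.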

Additional observations from a re-analysis of the deposited data

Results flagged for a closer look

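In groups of 4 samples, a library far from the others was sought for the 41 genes and for the summed lists, 116 groups in all, of which chance flags about 1 in 20, and 10 were found. Scop replicate 3 was far below the other Scop libraries for Cdc6 (1.97 FPKM against 2.93 to 3.06), for Rfc3 (10.2 against 12.6 to 13.0) and for the sum of replication-coupled chromatin genes (501 against 549.8 to 559). ICI replicate 3 was far above the other ICI libraries for Cdc6 (2.72 against 2.18 to 2.25) and for the ribosomal RNA-associated transcripts (3995 against 3826 to 3854). ICI replicate 2 was far below the other ICI libraries for Rpa2 (13.5 FPKM against 16.4 to 16.7) and for the sum of G1/S regulators (586 against 633 to 642). ICI replicate 1 stood above the other ICI libraries for the corneal endothelium markers (289 against 186 to 203). Scop replicate 1 stood above the other Scop libraries for the vessel markers (3.43 against 1.51 to 1.81). Scop replicate 4 stood above the other Scop libraries for the ribosomal RNA-associated transcripts (5113 against 717 to 1177).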

How the results depend on the processing

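The median log2 fold change of the members kept its sign under all 21 alternatives and moved by less than the spread between libraries. Of 830 values of named genes under alternatives, 825 kept their direction and stayed above an adjusted p of 0.05. The 5 that turned were all Gins4, at 0.014 after quantile normalisation, 0.0064 in limma-voom, 0.055 when scaled to basal and limbal markers, and 0.016 without ICI replicate 1 and 0.046 without Scop replicate 1. Over the 8 fits with 1 library left out, Gins4 lay between -0.089 and 0.046. With 1 library left out, 0 to 6 genes were called. Members lower at an unadjusted p under 0.05 numbered 9 to 33, beside 5.11% to 9.98% of all genes. Separated members numbered 4 to 29, beside 5.61% to 9.62%. The genes called, named after their values were seen, were Cxcl2 without Scop replicate 3, Cebpd without Scop replicate 1, and Gm26917, AY036118, Lars2, Malat1, Cxcl1 and S100a9 without Scop replicate 4. With a stromal covariate 1 gene was called (Cxcl2) and 34 members were lower (11.2% of all genes). Scaled to differentiated or to basal and limbal epithelium markers, 1 gene was called (Cxcl2), and 12 and 10 members were lower (4.14% and 1.54% of all genes). Under each, 1 member was separated (2.59% and 0.875%). Scaling to basal and limbal markers also turned the split of all genes to 186 lower and 658 higher. With a filter of 5 FPKM, 27 members were tested, 14 were lower (9.53% of all genes) and 1 was separated (5.38%), since fewer members enter. After quantile normalisation 7 members were separated (3.45%). Otherwise the causes were not tested. With the replicate number as a block, 18 members were lower (7.18%) and 0 genes called. The numbers were not taken as pairs, since deviations of same-numbered libraries correlated at 0.29, -0.01, 0.14 and 0.08, and not every library correlated best with its own number. The fewest fragments behind a member's value were the 89 of Orc1 in Scop replicate 3.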
